A study of Rattus norvegicus with 14 samples.

Results

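The 10 hippocampal libraries of rats that received PTZ were ordered by their level of Fos, the transcript of an immediate-early gene, and the 5 libraries with the highest Fos were set beside the 5 with the lowest, across all other genes. The 2 sets were thus chosen by a measured value, the FPKM of Fos in each library. These 10 are all of the PTZ-exposed libraries among the 14 libraries of the series. The animals were Wistar rats, wild type, weighing 180 to 220 g, and each library was made from mRNA captured on beads out of hippocampal RNA. One group of 5 carried the seizure model made with PTZ (pentylenetetrazole, which provokes seizures by blocking the GABA-A receptor) and received the compound Q808, written PTZ+Q808. A second group of 5 carried the same model and received vehicle, written PTZ. The control group of 4 received vehicle without PTZ. Dose, time of sampling after PTZ, age and any seizure score of the animals are unknown here. Sex is not labelled either, and Y-linked transcripts, which mark male tissue, were present in some libraries and absent in others, as given below. The design text says that rats were divided at random into the groups, and no label ties a replicate to an animal.

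Neuronal firing lets calcium into the cell, and calcium and MAP kinase signalling switch on a set of immediate-early genes within minutes without new protein synthesis. Fos is the best known of them: its protein pairs with Jun proteins to form AP-1, a transcription factor. In the hippocampus, seizures induce Fos and its companions in dentate granule cells and pyramidal cells, and the level of Fos is widely used as a marker of recent activity. The transcripts of most of these genes are short-lived.

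Fos was 175, 142, 127, 126 and 113 FPKM in the 5 highest libraries, which were PTZ 4, PTZ+Q808 5, PTZ+Q808 1, PTZ+Q808 3 and PTZ 3 in that order. It was 62.8, 43.2, 38.8, 38.2 and 27 FPKM in the 5 lowest, which were PTZ 1, PTZ 2, PTZ 5, PTZ+Q808 2 and PTZ+Q808 4, and 11.2, 13.3, 23.4 and 17 FPKM in control libraries 1 to 4. FPKM is the number of fragments scaled by transcript length and library size, and every list of values below keeps this order of libraries. The mean was 137 ± 23.8 FPKM in the highest set and 42.0 ± 13.1 FPKM in the lowest set (SD, n = 5 each), against 16.2 ± 5.36 FPKM in control (SD, n = 4). The libraries on either side of the division had 112.6 and 62.8 FPKM. Fos set this order, so its own difference is a description and was not tested. The 5 lowest-Fos libraries all lay above the 4 control libraries. The order crossed the treatments, since the highest set held 3 PTZ+Q808 and 2 PTZ libraries and the lowest set held 2 PTZ+Q808 and 3 PTZ libraries. Fos averaged 92.1 ± 54.9 FPKM in PTZ+Q808 and 86.4 ± 57.4 FPKM in PTZ libraries (SD, n = 5 each).

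Sets of libraries also stood apart in transcripts that have no known tie to activity. The Y-linked transcripts Kdm5d, Eif2s3y and Ddx3 were present (mean of the 3 at least 1 FPKM) in 1 of the 5 highest-Fos libraries, PTZ+Q808 1, in 5 of the 5 lowest and in 2 of 4 control libraries, 1 and 2. Kdm5d ranged over 0.0209 to 6.83 FPKM in the highest set, 5.87 to 7.25 FPKM in the lowest set and 0 to 5.82 FPKM in control. Among PTZ-exposed libraries without Y-linked transcripts Fos ranged over 113 to 175 FPKM (median 134, n = 4), and among those with them over 27.0 to 127 FPKM (median 41.0, n = 6). The high or low level of Fos and the absence or presence of Y-linked transcripts therefore largely coincide. As far as these transcripts mark the sex of the animals, the level of Fos and sex cannot be fully told apart in these libraries. Total counts, the activity lists and some marker lists are given below with and without a term for these transcripts, and other counts without it. The choroid plexus transcript Ttr was under 1000 FPKM in PTZ+Q808 1, PTZ 2 and control 3, PTZ+Q808 3 held 395 FPKM of the pituitary hormone transcript Prl, and control 2 held 29.4 FPKM of the striatal receptor transcript Drd2. Markers of dentate, CA1 and CA3 neurons were present in every set, with none of the 10, 9 and 10 list members at 0 throughout a set. Relative depth, read from the steps of the lowest values, was 0.971 to 1.03 of the mean in the highest set, 0.884 to 1.07 in the lowest set and 0.985 to 1.04 in control; absolute depth is unknown.

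Most genes that rose with Fos stand in the lists of activity genes (43 of 64, where the lists hold 122 of the genes tested), and fewer genes fell. The lists were chosen with earlier results of these data known, so this overlap is a description and no separate evidence. For each of 12743 genes the slope of log2(FPKM + 1) on log2(Fos FPKM + 1) was fitted with limma over the 10 PTZ-exposed libraries, with treatment as a term, so that a slope of 1 means that the gene doubled with each doubling of Fos. With Benjamini-Hochberg adjusted p under 0.05, 64 genes rose with Fos (0.502% of those tested) and 14 fell with Fos (0.11%), together 0.612%, while the median slope over all tested genes was -0.01. Slopes of the 64 ran over 0.20 to 1.53 (median 0.55), and their median difference between the highest and lowest sets was 0.95 on the log2(FPKM + 1) scale. In 48 of the 64 every highest-Fos library lay above every lowest-Fos library, which held for 1.07% of all tested genes. Taken separately within PTZ+Q808 and within PTZ, the highest-Fos libraries were all above the lowest in 51 of the 64, against 1.66% of all tested genes; in the other direction this held for 14 of the 14, against 3.06%. The slopes of the 14 ran over -0.32 to -0.19 (median -0.26), and 13 of them had no overlap in that direction, against 1.77% of all tested genes. Because these genes were called on the same libraries, the shares without overlap describe them and add no further evidence.

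The number of calls rested on single libraries. The count that rose was 30 without PTZ 4, the library with the most Fos, 33 without PTZ+Q808 4, the library with the least, 39 without PTZ+Q808 2 and 42 without PTZ+Q808 3. The count that fell was 3 without PTZ+Q808 4, 5 without PTZ 4, 7 without PTZ+Q808 3, 8 without PTZ 2 or PTZ+Q808 2 and 9 without PTZ 5. With each of the 10 libraries left out in turn, 26 of the 64 and 2 of the 14 passed in every fit, and the other 50 of the 78 lost their call in at least 1. The 26 were Junb, Arl4d, Egr1, Egr2, Egr3, Egr4, Nr4a1, Fosb, Gadd45g, Npas4, RGD1564664, Arc, Dusp6, Trib1, Rasl11a, Ppp1r15a, Spry2, Ptgs2, Rgs2, Irs2, Slc25a25, Jun, Csrnp1, Srf, Kdm6b and Tiparp, and the 2 were Gsn and Opalin.

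Fewer genes passed once the fit held a term for Y-linked transcripts. With a term for Y-linked transcripts 9 genes rose (0.0706%) and 0 fell, and 492 genes had an unadjusted p under 0.05. The 9 were Junb, Arl4d, Egr2, Nr4a1, Egr4, Fosb, Egr1, Gadd45g and Npas4. By list, 2 AP-1 and Maf genes rose with this term (6 without it) and 3 Egr, Klf and Nab genes (8 without it). So did 2 genes of the Nr4a and Npas4 list (8), 1 synaptic effector (8) and 1 gene of the mRNA decay, Btg and Gadd45 list (6). Of the MAP kinase phosphatase and Sprouty, secreted and vascular lists 0 rose with it (5, 1 and 2 without it). With this term the median slope was 0.59 over the 64 genes and -0.25 over the 14. Signs were the same for 64 of 64 and 14 of 14, against 72.3% of all tested genes. Single genes moved in both directions, such as Grasp from 0.37 to 0.21 and Btg2 from 0.85 to 1.04. Within the 6 PTZ-exposed libraries that had Y-linked transcripts the medians were 0.50 and -0.26, again with 64 of 64 and 14 of 14 of the same sign, against 69.6% of all tested genes, and 3 genes passed. Of these 6 only PTZ+Q808 1, with 127 FPKM of Fos, was above 62.8 FPKM. The slopes within the 6, and largely those with the Y-linked term, therefore lean on that library. Within the 4 without them, where Fos differed less, 64 of 64 and 8 of 14 (57.1%) kept their sign, against 55.3% of all tested genes. Medians were 1.24 and -0.02, and 0 passed. With treatment as a term that fit left almost no residual freedom, so its count of 0 has no meaning. Its slopes rested mostly on PTZ 4 (175 FPKM of Fos) against PTZ 3 (113 FPKM), since PTZ+Q808 5 and PTZ+Q808 3 had 142 and 126 FPKM. PTZ 3 was the lowest of the highest set for 53 of the 64 genes. The kept signs of the 64 were thus largely set by that pair. The libraries of both subsets are among those that chose the genes, so the kept signs are a description.

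**Figure D1:**
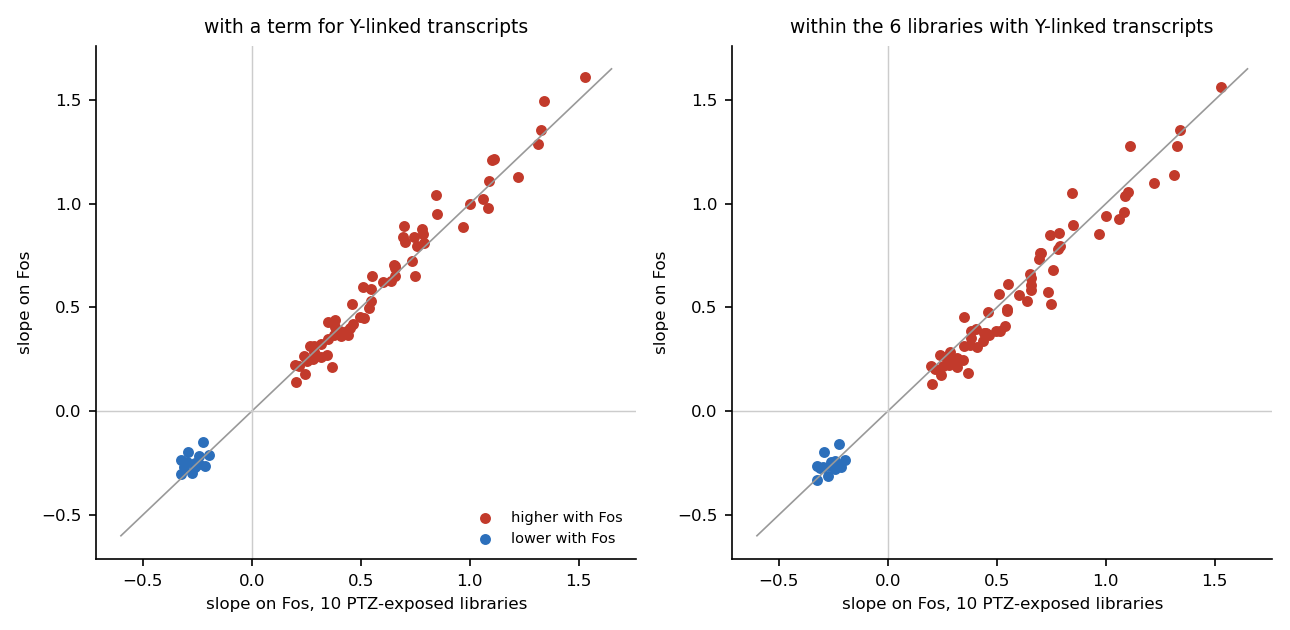
Slope on Fos of the 64 genes that rose and the 14 that fell: x axis, all 10 PTZ-exposed libraries; y axis, the same libraries with a term for Y-linked transcripts (left) or the 6 libraries that have these transcripts (right), both in log2 per log2; the line marks equality. Medians were 0.55 on the x axis, against 0.59 (left) and 0.50 (right), for genes that rose, and -0.26, against -0.25 and -0.26, for genes that fell.

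The control libraries, which had no part in the ordering, gave a separate description. Among the 4 of them, the slope on Fos was above 0 for 52 of the 64 genes, or 81.25%, against 49.2% of all tested genes, with a median of 0.23. It was below 0 for 14 of 14 of the genes that fell, with a median of -0.55. In these libraries too the 2 with less Fos, 11.2 and 13.3 FPKM, had Y-linked transcripts and the 2 with more, 23.4 and 17.0 FPKM, did not, and the part of this in the slopes was not tested.

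The AP-1 partners of Fos had the largest median slope of the lists. Of 9 tested genes that encode AP-1 and Maf factors, 6 rose with Fos and 0 fell (Fosb, Junb, Atf3, Fosl2, Jun and Jund), and the median slope was 0.66. Fosb, whose protein can replace Fos in AP-1, was 138, 146, 116, 108 and 43.8 FPKM in the highest-Fos libraries, 19.8, 17.3, 17.3, 17.9 and 7.26 FPKM in the lowest and 3.65, 3.75, 5.98 and 6.45 FPKM in control. All highest-Fos libraries lay above all lowest, and all lowest lay above control, with PTZ 3 the nearest to the gap. The slope was 1.53 ± 0.106 (SE; adjusted p = 8.5e-05, limma). Junb, an AP-1 subunit that dampens Jun, was 219, 202, 164, 161 and 99.6 FPKM in the highest set, 55.6, 54, 44.8, 50.5 and 34.8 FPKM in the lowest and 22.4, 30.5, 46.9 and 36.2 FPKM in control, with a slope of 1.00 ± 0.06 (SE; adjusted p = 5.84e-05, limma). Its sets did not overlap either, while its lowest-Fos and control libraries did.

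Not every member followed in every library. Atf3, a stress-induced member of the same protein family, was 28.7, 40.2, 24.5, 29.1 and 3.86 FPKM in the highest set, against 4.99, 3.25, 3.24, 3.79 and 1.98 FPKM in the lowest and 0.68, 0.527, 0.661 and 0.825 FPKM in control. PTZ 3, the library just above the division, sat within the range of the lowest set for this gene, and all PTZ-exposed libraries were above all control libraries. Its slope was 1.34 ± 0.177 (SE; adjusted p = 0.00749, limma), and the call was lost without PTZ 4 or without PTZ+Q808 4, with adjusted p up to 0.0793. Jun, the main partner of Fos, averaged 86.6 ± 25.5 FPKM in the highest set and 37.2 ± 4.8 FPKM in the lowest (SD, n = 5 each), against 37.8 ± 4.26 FPKM in control (SD, n = 4). The highest set stood wholly above control for Jun, with PTZ 3 again its lowest member at 45.7 FPKM, while the lowest set overlapped with control. Jund, often described as the constitutive Jun gene, rose by less, with a slope of 0.32 ± 0.0502 (SE; adjusted p = 0.0204, limma), and lost its call without any 1 of 5 libraries (adjusted p up to 0.151). Fosl1 and Maff, members that did not pass, averaged 1.62 and 4.46 FPKM in the highest set, 0.354 and 2.24 FPKM in the lowest, and 0.119 and 0.626 FPKM in control, with adjusted p of 0.0996 and 0.106 (limma).

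**Figure D2:**
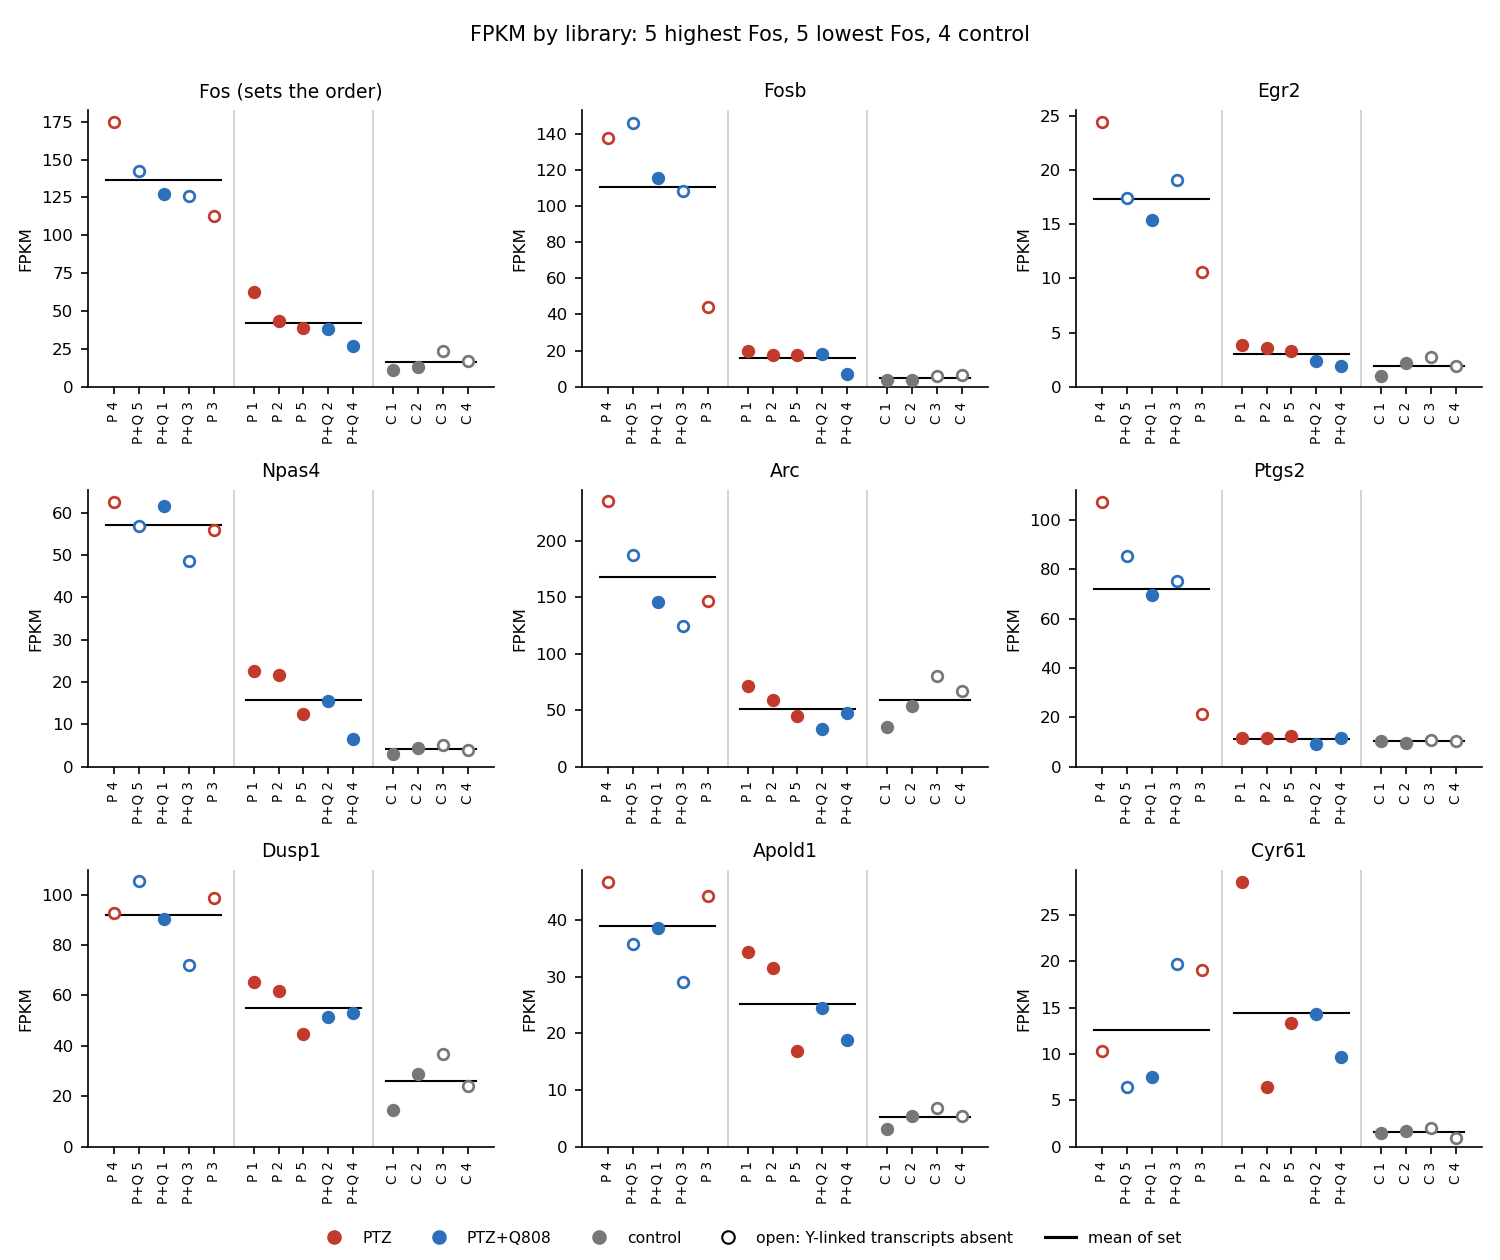
FPKM in each of the 14 libraries for Fos and 8 other genes, with the 5 highest-Fos libraries on the left, the 5 lowest in the middle and the 4 controls on the right of each panel (P, PTZ; P+Q, PTZ+Q808; C, control); open points lack Y-linked transcripts and bars are means. The highest set averages 110.3 FPKM of Fosb and 71.8 FPKM of Ptgs2, against 15.9 and 11.3 FPKM in the lowest set; Cyr61 averages 12.6 and 14.5 FPKM.

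All 4 Egr genes, which encode zinc finger transcription factors of the first wave of activity-induced genes, rose with Fos. Egr1, also known as Zif268, was 336, 318, 303, 237 and 229.9 FPKM in the highest-Fos libraries, 127, 122, 97.9, 89.1 and 94.6 FPKM in the lowest and 48.9, 66.4, 113 and 82.7 FPKM in control. The highest and lowest sets did not overlap, and control 3 lay within the lowest set. Its slope was 0.79 ± 0.0577 (SE; adjusted p = 0.000119, limma). Egr2, at much lower levels, was 24.4, 17.4, 15.4, 19.1 and 10.6 FPKM, against 3.81, 3.61, 3.31, 2.35 and 1.91 FPKM in the lowest set and 0.95, 2.23, 2.74 and 1.86 FPKM in control. The slope of Egr2 was 1.22 ± 0.0809 (SE; adjusted p = 7.91e-05, limma), and the lowest-Fos libraries overlapped with control. Egr4 averaged 103 ± 36.6 FPKM in the highest set and 18.2 ± 3.53 FPKM in the lowest, and Egr3 121 ± 43.1 and 29.9 ± 3.92 FPKM (SD, n = 5 each), against 14.3 ± 3.1 and 24.5 ± 2.09 FPKM in control (SD, n = 4). Over the 15 tested Egr, Klf and Nab genes, 8 rose and 0 fell, with a median slope of 0.32. The other 4 that rose were Klf6, Ier2, Csrnp1 and Srf. Srf encodes the serum response factor, which binds CArG boxes in the promoters of many immediate-early genes. It averaged 33 ± 6.65 FPKM in the highest set and 19.2 ± 0.629 FPKM in the lowest (SD, n = 5 each), against 19.3 ± 1.05 FPKM in control (SD, n = 4). The lowest set and control had nearly the same level, and the highest set lay wholly above both.

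The 4 promoters below are shown because their genes were among the 9 that passed with the Y-linked term and each holds one of the motifs searched. Each is the RefSeq window of 300 bases, 250 before the start of the gene and 50 after it, on GRCr8, written 5′ to 3′ on the strand of the gene, with capitals for the motif. In Egr1 (chr18:26736828-26737127, plus strand) and Egr2 (chr20:21054392-21054691, minus strand) the capitals are CArG boxes, in Arl4d (chr10:87100673-87100972, plus strand) the cAMP response element TGACGTCA and in Nr4a1 (chr7:134259888-134260187, plus strand) an Egr site on the opposite strand.
Egr1: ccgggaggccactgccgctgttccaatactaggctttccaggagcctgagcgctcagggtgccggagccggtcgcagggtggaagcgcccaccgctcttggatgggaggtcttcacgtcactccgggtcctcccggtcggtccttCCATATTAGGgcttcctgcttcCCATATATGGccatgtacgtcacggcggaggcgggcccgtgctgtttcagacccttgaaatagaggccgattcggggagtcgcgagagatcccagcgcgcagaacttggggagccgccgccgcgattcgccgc
Egr2: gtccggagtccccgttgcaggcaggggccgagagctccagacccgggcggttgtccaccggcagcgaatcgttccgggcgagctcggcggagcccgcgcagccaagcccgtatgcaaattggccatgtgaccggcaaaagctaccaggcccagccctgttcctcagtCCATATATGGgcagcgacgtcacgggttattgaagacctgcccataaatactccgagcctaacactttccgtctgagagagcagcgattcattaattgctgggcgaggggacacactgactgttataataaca
Arl4d: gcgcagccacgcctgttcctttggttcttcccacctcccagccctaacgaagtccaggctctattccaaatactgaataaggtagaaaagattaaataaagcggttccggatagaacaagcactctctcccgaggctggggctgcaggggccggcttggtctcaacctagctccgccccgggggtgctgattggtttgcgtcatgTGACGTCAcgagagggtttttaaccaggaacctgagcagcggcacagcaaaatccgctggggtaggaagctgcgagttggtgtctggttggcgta
Nr4a1: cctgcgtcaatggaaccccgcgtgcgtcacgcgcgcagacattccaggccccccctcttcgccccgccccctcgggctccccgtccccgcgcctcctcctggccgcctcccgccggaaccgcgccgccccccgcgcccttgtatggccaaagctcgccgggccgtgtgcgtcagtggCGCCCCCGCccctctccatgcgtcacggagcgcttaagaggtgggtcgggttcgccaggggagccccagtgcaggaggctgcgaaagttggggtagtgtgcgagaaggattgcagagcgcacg

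The boxes of Egr1 begin 105 and 83 bases before the start, that of Egr2 83 bases, the element of Arl4d 45 bases and the Egr site of Nr4a1 73 bases before it. The windows of Junb, Fosb, Egr4, Gadd45g and Npas4, the others of the 9 that passed with the Y-linked term, held none of the motifs searched. The table of RefSeq promoters held 51 of the 64 genes that rose, 13 of the 14 that fell and 10234 of all tested genes; Fos and Arc had no entry. Searched on both strands, TGACGTCA was in 10 of the 51 (19.6%), against 3.11% of tested genes and 1.91% of all 27457 promoters. It was in Arl4d, Arl5b, Btg2, Ccnl1, Dusp1, Ier2, Irf2bpl, Jund, Ppp1r15a and Slc25a25. The CArG box was in 6 of the 51 (11.8%), against 1.2% of tested genes and 1.64% of all promoters, and those genes were Dusp5, Egr1, Egr2, Klf6, Srf and Zfp36. The Egr site, GCGNGGGCG, was in 11 (21.6%), against 10.7% of tested genes and 5.29% of all promoters. The AP-1 site, TGANTCA, was in 2 (3.92%), against 4.61% of tested genes and 7.33% of all promoters. None of these 4 motifs was in the 13 windows of genes that fell, and an absence covers these letters in these windows alone.

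Among nuclear receptors of the Nr4a family, the neuron-specific factor Npas4 and related factors, 8 of 13 tested genes rose, 0 fell and the median slope was 0.47. Npas4, which is induced by calcium entry and regulates inhibitory synapses, was 62.4, 56.9, 61.6, 48.6 and 55.8 FPKM in the highest-Fos libraries, 22.7, 21.6, 12.4, 15.6 and 6.64 FPKM in the lowest and 3.1, 4.32, 5.17 and 4.05 FPKM in control. The 3 sets formed steps with no overlap, and PTZ+Q808 4, lowest in Fos, was also the lowest PTZ-exposed library here. The slope was 1.11 ± 0.0866 (SE; adjusted p = 0.000172, limma). Nr4a1, an orphan nuclear receptor, was 75.3, 71.5, 69.9, 50.9 and 61 FPKM in the highest set, 38, 32.2, 24.3, 25.9 and 17.8 FPKM in the lowest and 6.78, 11.3, 21.1 and 16.4 FPKM in control, with a slope of 0.74 ± 0.0495 (SE; adjusted p = 7.91e-05, limma). The highest set was apart, and control 3 lay within the lowest set. Its relative Nr4a3 averaged 52.4 ± 18 FPKM in the highest set and 19 ± 3.19 FPKM in the lowest (SD, n = 5 each), against 15.4 ± 2.26 FPKM in control (SD, n = 4), and lost its call without PTZ 4 or PTZ+Q808 4 (adjusted p up to 0.0964, limma). Nr4a2 passed with an adjusted p of 0.0498 (limma) and a slope of 0.70 ± 0.131 (SE), with 15.1 FPKM in PTZ 3, inside the range of the lowest set. That call was lost without any 1 of 8 libraries, all but PTZ 3 and PTZ 5, with adjusted p up to 0.214.

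The remaining members were Per1, Nfil3, Tiparp and Arid5a. Per1, a clock gene that is also induced by activity, averaged 21.7 ± 4.73 FPKM in the highest set and 11.4 ± 1.17 FPKM in the lowest (SD, n = 5 each), against 8.68 ± 2.18 FPKM in control (SD, n = 4), and its call was lost without PTZ 4, PTZ+Q808 2 or PTZ+Q808 4 (adjusted p up to 0.0957, limma). Of the 17 tested clock genes 2 rose, Per1 and Cry2, and the median slope was 0.02. Cry2 averaged 43.3 ± 2.72 FPKM in the highest set and 33.3 ± 0.342 FPKM in the lowest (SD, n = 5 each), a small gap between 2 narrow sets; its call was lost without PTZ 4 (adjusted p = 0.0626, limma).

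**Figure D3:**
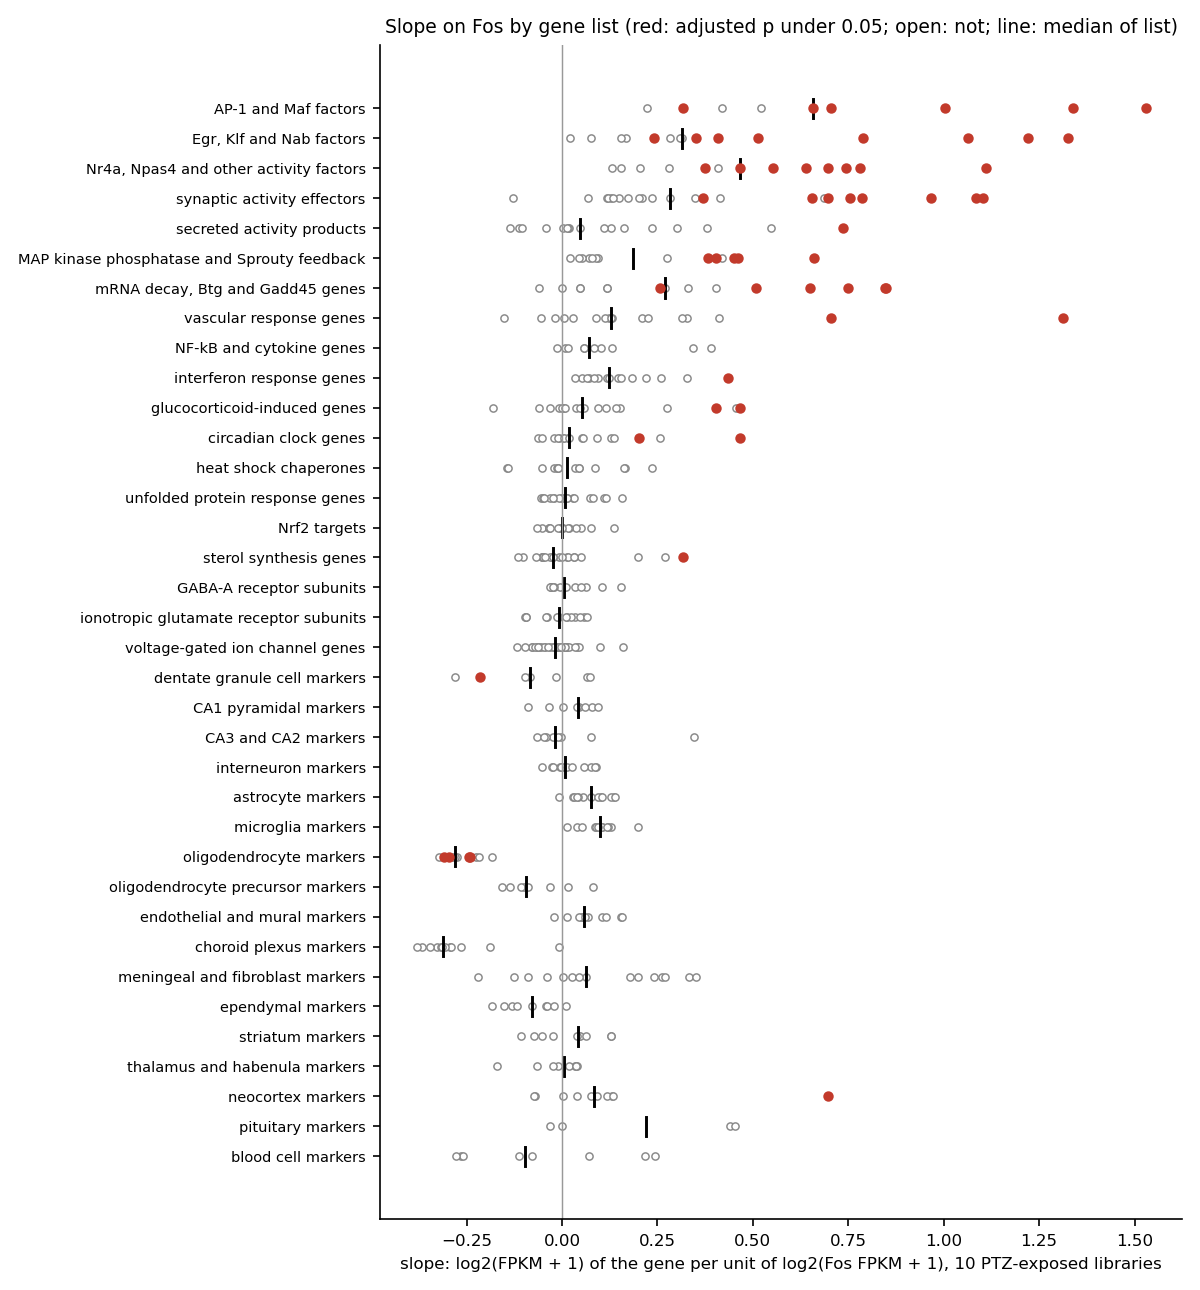
Slope on Fos for every tested member of the gene and marker lists, in log2(FPKM + 1) of the gene per unit of log2(Fos FPKM + 1) over the 10 PTZ-exposed libraries; filled red points have an adjusted p under 0.05 and bars mark list medians. The median is 0.66 for AP-1 and Maf factors, 0.05 for secreted products and -0.28 for oligodendrocyte markers.

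Genes that act at synapses and dendrites followed Fos in part: 8 of 23 tested synaptic effectors rose, 0 fell and the median slope was 0.28. Arc, whose protein drives endocytosis of AMPA receptors, was 235, 188, 146, 124 and 146 FPKM in the highest-Fos libraries, 71.9, 58.8, 45.2, 33.1 and 47.8 FPKM in the lowest and 35.1, 54, 80.0 and 66.8 FPKM in control. All highest-Fos libraries were above all others, and the lowest set did not exceed control, with means of 51.4 ± 14.7 FPKM in the lowest set (SD, n = 5) and 59 ± 19.2 FPKM in control (SD, n = 4). The slope was 0.97 ± 0.0898 (SE; adjusted p = 0.000759, limma). Arl4d, a small GTPase of the Arf family, was 49.4, 51.1, 32, 43.9 and 26.1 FPKM in the highest set, 14.5, 9.52, 10.8, 11.2 and 5.76 FPKM in the lowest and 5.33, 14.5, 12.2 and 7.59 FPKM in control, with a slope of 1.08 ± 0.0649 (SE; adjusted p = 5.84e-05, limma). Its lowest-Fos libraries and controls overlapped. Rgs2, a regulator of G protein signalling, averaged 96.6 ± 29.3 FPKM in the highest set and 39.7 ± 3.88 FPKM in the lowest (SD, n = 5 each), against 36.8 ± 11.8 FPKM in control (SD, n = 4). Pcdh8, a protocadherin, was 134, 149, 118, 106 and 25.4 FPKM in the highest set and 21.7, 26.8, 22.2, 18 and 23.1 FPKM in the lowest, against 29.7, 20.4, 26.2 and 26.3 FPKM in control. Here PTZ 3 was at the level of the lowest set and of control, and the other 4 highest-Fos libraries were at 106 FPKM or more. The call of Pcdh8 was lost without PTZ 4 or without any of the 5 PTZ+Q808 libraries (adjusted p up to 0.123, limma). Rasl11a, Arl5b, Grasp and Fbxo33 also rose. Homer1, which also gives rise to a short form induced by activity that a gene-level value cannot separate, averaged 19.9 ± 3.32 FPKM in the highest set and 16.4 ± 1.86 FPKM in the lowest (SD, n = 5 each) and did not pass (adjusted p = 0.476, limma).

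Among 17 tested genes for secreted products of activity 1 rose, Bdnf, against 0.502% of all tested genes, and the median slope was 0.05. Bdnf, the neurotrophin that supports synaptic plasticity, was 22.2, 19.5, 14.5, 17.2 and 5.01 FPKM in the highest set, against 4.71, 4.56, 5.74, 5.59 and 4.91 FPKM in the lowest and 5.15, 3.22, 4.48 and 5.22 FPKM in control. PTZ 3 lay among the lowest set, while the other 4 stood well above. The slope was 0.74 ± 0.134 (SE; adjusted p = 0.0426, limma), and the call was lost without any 1 of 8 libraries, all but PTZ 3 and PTZ 5, with adjusted p up to 0.183. Nptx2, which clusters AMPA receptors, was 88.9, 59.4, 41.4, 85.9 and 46.1 FPKM in the highest set and 24.6, 26.5, 35.8, 26.8 and 32.7 FPKM in the lowest, with no overlap, but did not pass (slope 0.55 ± 0.13, SE; adjusted p = 0.132, limma).

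Some of the genes whose products limit MAP kinase signalling or shorten the life of transcripts rose with Fos. Of 14 tested MAP kinase phosphatase and Sprouty genes 5 rose (Dusp1, Dusp4, Dusp5, Dusp6 and Spry2), 0 fell and the median slope was 0.18. Dusp6, a phosphatase specific for ERK, was 61.7, 50.1, 44.1, 54 and 40.9 FPKM in the highest set, 34.1, 28.4, 32.5, 26.8 and 24 FPKM in the lowest and 17.6, 18.8, 21.7 and 22.7 FPKM in control. The 3 sets formed steps without overlap, with a slope of 0.45 ± 0.0444 (SE; adjusted p = 0.00125, limma). Dusp1, which inactivates several MAP kinases, was 92.7, 105, 90.4, 71.9 and 98.8 FPKM in the highest set, 65.3, 61.6, 44.5, 51.3 and 53.2 FPKM in the lowest and 14.5, 29, 36.8 and 24.2 FPKM in control. It too formed 3 steps, with a slope of 0.40 ± 0.0638 (SE; adjusted p = 0.0196, limma), but the call was lost without PTZ 4, PTZ+Q808 2, PTZ+Q808 4 or PTZ+Q808 5 (adjusted p up to 0.0794). Spry2, an inhibitor of growth factor signalling, averaged 40.2 ± 7.33 FPKM in the highest set and 25.2 ± 2.56 FPKM in the lowest (SD, n = 5 each), against 27.8 ± 1.41 FPKM in control (SD, n = 4). Its lowest set did not exceed control.

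Of 15 tested genes of mRNA decay and of the Btg and Gadd45 families, 6 rose (Gadd45g, Gadd45b, Btg2, Ppp1r15a, Trib1 and Zfp36), 0 fell and the median slope was 0.27. Gadd45g, a stress sensor linked to DNA demethylation, was 67.5, 87.7, 72.8, 54.1 and 33.6 FPKM in the highest set, 26.4, 16.7, 18.1, 25.1 and 17.6 FPKM in the lowest and 9.19, 13.1, 14 and 11.5 FPKM in control. The steps did not overlap, PTZ 3 being the lowest of its set, and the slope was 0.85 ± 0.0629 (SE; adjusted p = 0.000119, limma). Btg2, which restrains cell division and promotes deadenylation, averaged 64.6 ± 17.7 FPKM in the highest set and 24.5 ± 10.8 FPKM in the lowest (SD, n = 5 each), against 11.7 ± 2.58 FPKM in control (SD, n = 4); its call was lost without PTZ+Q808 4 (adjusted p = 0.0645, limma). Zfp36 encodes tristetraprolin, which speeds the decay of AU-rich transcripts, and it averaged 11.8 ± 1.32 FPKM in the highest set and 8.64 ± 1.48 FPKM in the lowest, against 3.92 ± 1 FPKM in control. Its call with Fos was lost without any 1 of 8 libraries (adjusted p up to 0.204, limma). For Zfp36 the step between the lowest set and control, 0.98 on the log2(FPKM + 1) scale, exceeded the step of 0.42 between the highest and lowest sets.

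Genes of the vascular and inflammatory response included a few that rose with Fos and others that were higher in PTZ-exposed than in control libraries without a slope on Fos that passed. Of 17 tested vascular response genes 2 rose, Ptgs2 and Fosl2, which is also counted among the AP-1 factors, and the median slope was 0.13. Ptgs2, the inducible cyclooxygenase COX-2, which hippocampal neurons also express, was 107, 85.5, 69.7, 75.3 and 21.3 FPKM in the highest set, 11.7, 11.5, 12.5, 9.24 and 11.7 FPKM in the lowest and 10.5, 9.75, 11 and 10.4 FPKM in control. The lowest set and control were at one level and the highest set was above both, with PTZ 3 at 21.3 FPKM well below the other 4. The slope was 1.31 ± 0.157 (SE; adjusted p = 0.0046, limma). Apold1, an endothelial immediate-early gene, was 46.7, 35.8, 38.6, 29.1 and 44.3 FPKM in the highest set, 34.4, 31.5, 16.8, 24.5 and 18.7 FPKM in the lowest and 3.07, 5.44, 6.78 and 5.36 FPKM in control. All 10 PTZ-exposed libraries were above all controls, and the slope on Fos did not pass (0.41 ± 0.083, SE; adjusted p = 0.0671, limma).

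Cyr61 and Nfkbia, singled out after their values were seen, were the plainest cases. Cyr61, a matricellular protein gene, was 10.4, 6.44, 7.53, 19.7 and 19 FPKM in the highest set, 28.5, 6.44, 13.3, 14.3 and 9.67 FPKM in the lowest and 1.44, 1.74, 2.01 and 0.983 FPKM in control. Its highest value was in PTZ 1, of the lowest set, and the values of the 2 sets were mixed. The slope was -0.02 ± 0.213 (SE; adjusted p = 0.996, limma), while PTZ-exposed libraries together exceeded control by 2.39 on the log2(FPKM + 1) scale (adjusted p = 0.00576, limma, higher in 10 of 10 libraries than in any control). Nfkbia, the inhibitor of NF-kB and itself a target of it, averaged 31.2 ± 3.37 FPKM in the highest set and 29.5 ± 5.12 FPKM in the lowest (SD, n = 5 each), against 15.6 ± 2.64 FPKM in control (SD, n = 4). Its slope was 0.06 ± 0.0637 (SE; adjusted p = 0.937, limma). Of 10 tested NF-kB and cytokine genes 0 passed with the slope on Fos in either direction, against 0.612% of all tested genes, and the median slope was 0.07. Of 15 interferon response genes 1 rose, Ifit3, at 4.03 ± 1.41 FPKM in the highest set and 2.28 ± 0.83 FPKM in the lowest, against 0.803 ± 0.215 FPKM in control; the slopes of all 15 were above 0 (median 0.12), and the call of Ifit3 was lost without any 1 of 8 libraries, all but PTZ 3 and PTZ+Q808 1 (adjusted p up to 0.237, limma).

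Setting all PTZ-exposed libraries against control placed these genes on a second scale. Over 14 libraries, 60 genes were higher in PTZ-exposed than in control libraries (0.471% of 12744) and 19 were lower (0.149%), together 0.62%, in a limma fit of the 3 groups. Of the 64 genes that rose with Fos, 4 were among the 60, namely Npas4, Dusp1, Zfp36 and Ifit3, against 0.471% of all tested genes. Without control 1 the call against control was lost for all 4 and for Cyr61 (adjusted p up to 0.194, 0.130, 0.0566, 0.186 and 0.0566 with 1 library left out, limma). The median difference of the 64 from control was 0.75. That fit has no term for Fos, so the spread of a gene with Fos enters its error. Fosb, for 1, was 2.81 ± 0.713 above control (SE, adjusted p = 0.0809, limma). The count of genes that differed from control, 79 in all, ranged over 2 to 148 with 1 library left out and was 2 without control 1. The 2 comparisons share the 10 PTZ-exposed libraries. In 54 of the 64 (84.4%) the lowest-Fos mean was above the control mean, against 48.5% of all tested genes. The median difference was 0.23 over the 64 and 0.00 over all tested genes. In 9 of the 64 all 5 lowest-Fos libraries were above all 4 controls, against 2.27% of all tested genes, and these were Fosb, Gadd45g, Npas4, Dusp6, Atf3, Tiparp, Ccnl1, Dusp1 and Zfp36. Fold changes on the log2(FPKM + 1) scale understate those of genes with low values.

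**Figure D4:**
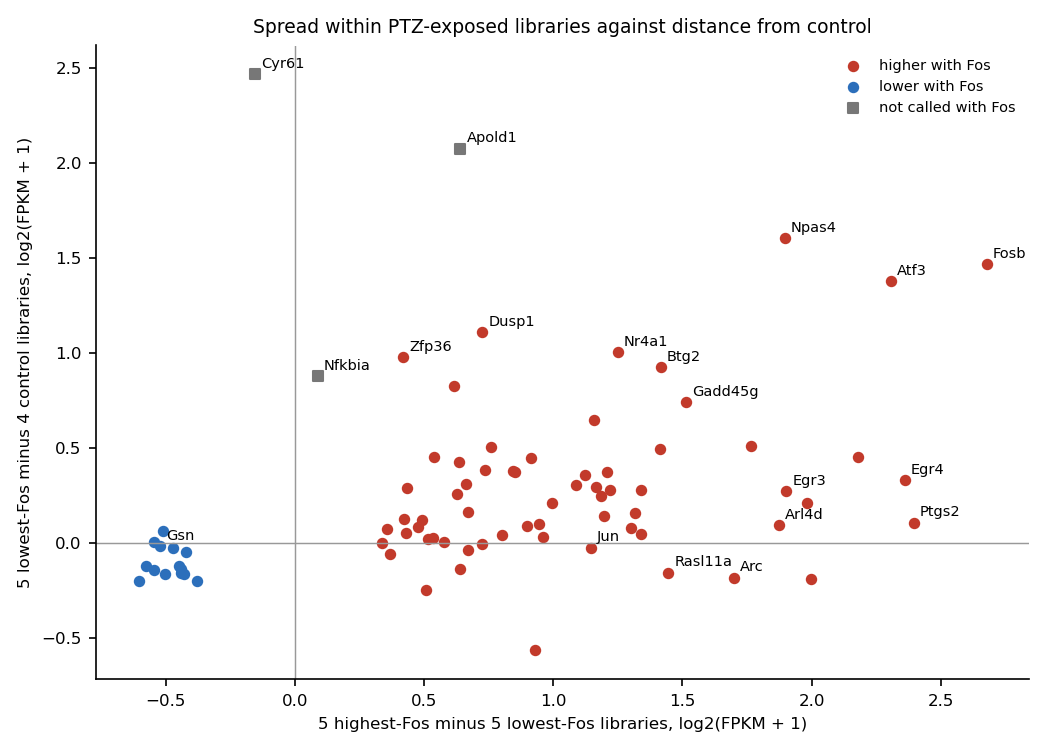
Each point is a gene: x axis, mean of the 5 highest-Fos minus mean of the 5 lowest-Fos libraries; y axis, mean of the 5 lowest-Fos minus mean of the 4 control libraries, both on the log2(FPKM + 1) scale. Arc lies at 1.70 and -0.18, Npas4 at 1.90 and 1.61, and Cyr61, which was not called with Fos, at -0.16 and 2.47.

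Further genes that rose with Fos lie outside the lists, and they include signalling, chromatin and channel genes. Irs2, an adaptor of insulin signalling, averaged 44.1 ± 9.4 FPKM in the highest set and 21.2 ± 1.67 FPKM in the lowest (SD, n = 5 each), against 18.3 ± 2.59 FPKM in control (SD, n = 4). Plat, tissue plasminogen activator, averaged 33.7 ± 5.55 FPKM in the highest set and 24.6 ± 3.2 FPKM in the lowest (SD, n = 5 each). Kdm6b, a histone H3 lysine demethylase, was 11.7, 9.61, 9.45, 11 and 8.45 FPKM in the highest set and 7.88, 6.88, 6.64, 6.39 and 6.31 FPKM in the lowest, with no overlap. Adrb1, the beta-1 adrenergic receptor gene, was 12.8, 11.2, 11, 12.3 and 11.6 FPKM in the highest set, against 8.74, 6.58, 4.29, 5.4 and 7.49 FPKM in the lowest. The highest set was narrow and apart for this gene, and the lowest set spread over the control range of 5.18 to 7.35 FPKM. Kcnj2, an inward rectifier potassium channel, was 5.36, 3.79, 3.3, 3.45 and 1.38 FPKM in the highest set, 1.47, 1.54, 1.02, 1.03 and 1.16 FPKM in the lowest and 2.4, 3.37, 1.86 and 1.79 FPKM in control. Its 5 lowest-Fos libraries all lay below the 4 controls, which held for 1 of the 64 and for 2% of all tested genes. These genes were chosen after their values were seen, and the calls of Plat, Adrb1 and Kcnj2 were lost without 2, 8 and 9 of the libraries taken singly (adjusted p up to 0.122, 0.164 and 0.132, limma).

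In 3 lists of neuronal receptor and channel genes no member passed with the slope on Fos. Of 13 GABA-A receptor genes, 15 ionotropic glutamate receptor genes and 31 voltage-gated channel genes tested, 0 passed in either direction, with median slopes of 0.00, -0.01 and -0.02. Over all tested genes 0.612% passed, so a count of 0 in lists of this size is close to that share. Among GABA-A receptor genes, the target class of PTZ, Gabra3 averaged 23.1 ± 3.24 FPKM in the highest set and 17.9 ± 3.36 FPKM in the lowest (SD, n = 5 each; adjusted p = 0.605, limma). Heat shock, unfolded protein response and Nrf2 genes likewise had 0 of 14, 0 of 19 and 0 of 16 that passed, again close to the share over all tested genes. Glucocorticoid-induced genes had 2 of 18 that rose, Per1 and Dusp1, which stand in other lists too, and a median slope of 0.05.

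The genes that fell with Fos included genes of myelinating cells. Of the 13 tested oligodendrocyte markers 4 fell (Mag, Cnp, Opalin and Fa2h), 0 rose, and the slopes of all 13 were below 0, with a median of -0.28, against -0.01 over all tested genes. Their mean log2(FPKM + 1) was 6.77, 6.71, 6.72, 6.4 and 6.74 in the highest-Fos libraries, 6.9, 7.0, 7.37, 7.26 and 7.20 in the lowest, and 7.44, 7.61, 6.88 and 6.69 in control. The highest and lowest sets did not overlap; control overlapped with both, and PTZ+Q808 3, of the highest set, lay below every control. Their summed level was 2984 to 4306 FPKM in the highest set, 4558 to 6318 FPKM in the lowest and 4041 to 7951 FPKM in control, and none of the 13 was at 0. In tissue RNA, fewer cells of a type and less RNA per cell cannot be told apart.

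Opalin, a myelin membrane protein gene, was 50.8, 54.2, 57.3, 49 and 57.6 FPKM in the highest set, 64.4, 85.4, 80.1, 85.8 and 80.3 FPKM in the lowest and 98, 95.2, 77.7 and 51.9 FPKM in control, with a slope of -0.31 ± 0.0378 (SE; adjusted p = 0.00491, limma). Gsn, the actin-severing protein gelsolin, was 55.8, 54.4, 49.9, 55.5 and 55.6 FPKM in the highest set, 75.2, 76.4, 83.8, 73.8 and 82.5 FPKM in the lowest and 76, 117, 63.3 and 69.8 FPKM in control, with a slope of -0.28 ± 0.0302 (SE; adjusted p = 0.00228, limma). For both genes the highest and lowest sets were apart and control overlapped with the lowest set, with control 4 inside the highest set for Opalin. Cnp, a phosphodiesterase of myelin, averaged 283 ± 29 FPKM in the highest set and 386 ± 21.7 FPKM in the lowest (SD, n = 5 each), against 433 ± 124 FPKM in control (SD, n = 4), and its call was lost without PTZ+Q808 4 (adjusted p = 0.122, limma). The other genes that fell were Nipal4, Adamts4, Prr18, Fzd10, Gpr62, Serinc5, Il1rap, Erbb3 and Nhlh1. Nipal4 and Adamts4 were lost without PTZ+Q808 4, with adjusted p of 0.0964 and 0.118, and Prr18, Fa2h, Fzd10, Gpr62, Serinc5, Il1rap, Nhlh1, Mag and Erbb3 without any 1 of 3 to 10 libraries (limma). Mbp, which encodes myelin basic protein, averaged 1634 ± 307 FPKM in the highest set and 2152 ± 300.2 FPKM in the lowest (SD, n = 5 each) and did not pass (adjusted p = 0.357, limma). With the Y-linked term the median slope of the oligodendrocyte markers was -0.25 and 0 passed; among the 4 control libraries it was -0.74, where the 2 libraries with Y-linked transcripts had the higher marker levels.

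**Figure D5:**
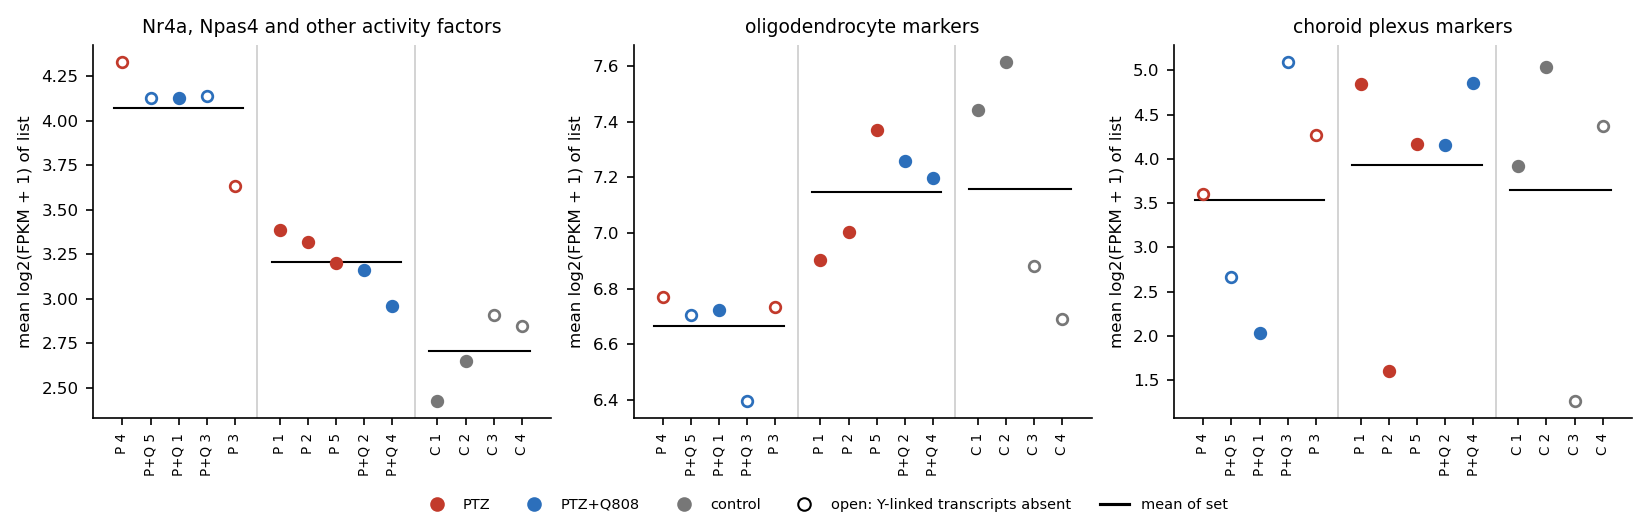
Mean log2(FPKM + 1) of 3 gene lists in each library, with the 5 highest-Fos libraries on the left, the 5 lowest in the middle and 4 controls on the right (P, PTZ; P+Q, PTZ+Q808; C, control); open points lack Y-linked transcripts and bars are means. The oligodendrocyte markers lie between 6.4 and 6.77 in the highest set and between 6.9 and 7.37 in the lowest; choroid plexus markers overlap across the sets.

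Markers of other cell types were given the same test. Of 12 tested choroid plexus markers 0 passed although all 12 slopes were below 0 (median -0.31), and their summed level ran over 404 to 7472 FPKM in the highest set, 185 to 6820 FPKM in the lowest and 106 to 7833 FPKM in control, with 1 of 13 list members at 0 throughout. All 12 microglial markers had slopes above 0 (median 0.10) and 0 passed, and 12 of 13 astrocyte markers had slopes above 0 (median 0.07) and 0 passed. Over all tested genes 41.9% of slopes were above 0 and 0.612% passed. With the Y-linked term the microglial median was -0.03, with 7 of the 12 slopes below 0, and the astrocyte median was 0.08. The same term gave medians of -1.18 for choroid plexus markers and 0.66 for meningeal markers (0.06 without it). Of 8 oligodendrocyte precursor markers 0 passed (median -0.09). Dentate granule cell markers had 1 of 7 that fell, Il1rap, and a median slope of -0.08; Prox1, the defining factor of granule cells, averaged 6.91 ± 1.92 FPKM in the highest set and 10.3 ± 1.5 FPKM in the lowest (SD, n = 5 each; adjusted p = 0.401, limma). CA1, CA3 and CA2, interneuron, endothelial and mural, meningeal, ependymal, striatal, thalamic, pituitary and blood cell markers had 0 that passed, and the 1 of 10 neocortex markers that rose was Nr4a2, which also stands among the activity factors. Whether tissue composition has a part in the genes that rose with Fos was not tested.

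The relation to Fos was compared between the 2 treatments. In a fit with an interaction term, 0 of 12743 genes had a slope that differed between PTZ+Q808 and PTZ libraries at an adjusted p under 0.05 (limma; smallest adjusted p 1.00), while 392 had an unadjusted p under 0.05. With weights per library, or without PTZ 4 or PTZ+Q808 4, the count was 1. For Fosb the slope in PTZ+Q808 exceeded that in PTZ by 0.35 ± 0.197, for Npas4 by 0.19 ± 0.176 and for Egr2 by 0.06 ± 0.173 (SE).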

How the data were processed

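Bead-captured mRNA of hippocampus was sequenced, on a BGI T7 machine by the labels' protocols, in 5 PTZ+Q808, 5 PTZ and 4 control libraries. The authors deposited 1 FPKM value for each of 22601 genes and each library. The submitters' processing notes name Trimmomatic, HISAT2, Bowtie2, SAMtools, StringTie, Cufflinks, HTSeq and DESeq without role or version, and the genome build, the counting of strand and the read totals are not given in the sources used here. Depth was therefore compared only through the steps between values under 0.08 FPKM, and FPKM of antisense or overlapping genes may share reads. Of the gene IDs, 20633 matched a RefSeq gene table (GRCr8, used for names and promoters), and 12 symbols turned into dates were restored by ID.

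Genes with at least 1 FPKM in at least 4 of 14 libraries were tested on log2(FPKM + 1) with limma 3.58.1 in R 4.3.3 (trended prior), 2-sided, with Benjamini-Hochberg adjustment over all tested genes. The slope on log2(Fos FPKM + 1), with treatment as a term, had 7 residual degrees of freedom; its interaction with treatment and the mean of both PTZ-exposed groups against control (11 degrees of freedom) were fitted likewise. The sets of 5 libraries, ordered by a measured value, were described; a fit with set membership in place of Fos was run only as an alternative and supports no result. P-values measure the spread between libraries that the labels call separate. In simulated data of 12743 genes with 200 changed, the association fit recovered 94% of slopes of 0.5 and 100% of slopes of 1, with 15 false calls. The interaction fit recovered 61% and 90%, and the fit against control 81% and 97%. The simulated noise was drawn independently for each gene and library. It had no differences shared by the genes of a library and no tie between Fos and Y-linked transcripts. These rates may therefore be too favourable for the real libraries.

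Named genes were the 10 largest differences in each direction among called genes without overlap, and the smallest p-values of each list (4, or 2 for metabolic, neuronal and cell lists). Jund, Nr4a3, Pcdh8, Srf, Zfp36, Homer1, Fosl1, Maff, Mbp and those so marked in the text were added after their values were seen. Results of some genes are not reported here. The members and the 37 gene lists (468 genes tested) were chosen with earlier results of these data known. Alternatives were another pseudocount, filters, scalings, priors, weights, thresholds, covariates, predictors, a replicate block and leaving out each library; subsets by Y-linked transcripts and without libraries low in Ttr (under 1000 FPKM) were added after seeing the data.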

Additional observations from a re-analysis of the deposited data

Results flagged for a closer look

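Within groups of 4 or 5 libraries, 22 of 240 checks found 1 library far from the others by the gap between it and its neighbour (Dixon's 95% value), and chance flags about 1 in 20. In 21 of these the library was PTZ 4, the highest of the PTZ group and the library with the most Fos. Among AP-1 and Egr factors it held 138 FPKM of Fosb, 28.7 of Atf3, 109.5 of Jun, 43.9 of Fosl2, 135 of Egr4 and 169 of Egr3. Among other activity factors it held 59.1 FPKM of Nr4a2, 23.1 of Tiparp, 7.37 of Arid5a and 26.7 of Per1. Among effectors and feedback genes it held 107 FPKM of Ptgs2, 108 of Rgs2, 22.2 of Bdnf, 49.8 of Spry2 and 38.3 of Dusp4. Stress, interferon and sterol genes at such a gap included Atf4 with 214 FPKM, Dnajb1 with 35.9, Dnajb4 with 31.7, Cebpd with 23.8, Ifit3 with 6.16 and Insig1 with 48.3 FPKM. These checks share 1 library and are not independent of each other. Many of these genes were named for a large difference between the Fos sets or a small p-value of the slope on Fos. A gap at the library with the most Fos is thus partly built in, and the chance rate is no yardstick for it. In the control group, Rspo1 stood apart at 1.73 FPKM in control 2, the library with striatal transcripts.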

How the results depend on the processing

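The 78 genes called with Fos (64 higher, 14 lower) became 136 with weights per library, 34 and 131 at adjusted p under 0.01 and 0.10, 9 with the Y-linked term, 30 with the 5 highest against the 5 lowest libraries as the predictor (27 shared), 3 and 0 within libraries with and without Y-linked transcripts, and 35 without those low in Ttr. The higher count became 32 at 0.01, 9 with the Y-linked term, 26 with the 5 against 5 predictor, 3 and 0 within the Y-linked subsets and 28 without libraries low in Ttr. The lower count became 7 with no filter on low values, 8 with median-of-ratios scaling, 45 with weights, 2 and 45 at 0.01 and 0.10, 0 with the Y-linked term, 8 with a Ttr term, 9 with Arc as predictor, 4 with the 5 against 5 predictor, 0 and 0 within the Y-linked subsets and 7 without libraries low in Ttr. With 1 library left out the totals ranged over 35 to 86, the higher count over 30 to 72, the lower over 3 to 18, the interaction over 0 to 1 and the 79 against control over 2 to 148. The interaction count was 1 with weights. The count against control became 40 with no filter, 522 with weights, 6 and 301 at 0.01 and 0.10, 132 with the Y-linked term, 47 with the Ttr term, 17 with a meningeal term, 0 and 5 within the Y-linked subsets and 4 without libraries low in Ttr. Pseudocount, stricter filter, other scalings, robust prior, rank of Fos (87, 69 shared) and no treatment term (81, 66 shared) kept the total within 1.5 times.

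The deviations of same-numbered PTZ and PTZ+Q808 libraries correlated at 0.02, -0.08, 0.07, -0.28 and 0.14, within the range of -0.45 to 0.38 among other-numbered pairs. They gave no sign that replicate numbers pair the libraries and cannot exclude it. With a replicate block 28 genes were called with Fos, 28 higher and 0 lower (21 shared), 0 in the interaction and 4 against control.

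Signs reversed within the 4 libraries without Y-linked transcripts for Nipal4 (0.0488), Adamts4 (0.0969), Cnp (0.0335), Serinc5 (0.081), Erbb3 (0.0613), Mag (0.0234), Mbp (0.0262), Ifit2 (-0.11), Sesn2 (-0.26), Cat (-0.13), Cryab (0.0543) and Rspo1 (-0.60), within the 6 with them for Vgf (-0.0188), Rspo1 (-0.0152) and Nfkbia (-0.051), and with the Y-linked term for Rspo1 (-0.0588) and Nfkbia (-0.0133). The slope of Cyr61, near 0, reversed with quantile normalization (0.00492), weights (0.0239) and a Ttr term (0.0277), and ranged over -0.14 to 0.0812 with 1 library left out. The causes were not tested. Library weights came from an estimate that did not fully converge, absolute depth is unknown, and genes under 1 FPKM were mostly left untested.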

Other observations

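The library just above the division, PTZ 3, was uneven across the genes that rose with Fos, a pattern noticed after the values were seen. PTZ 3 had the least Fos of the highest set, and it was the lowest of that set for 53 of the 64 genes. For 15 of the 64, among them Atf3, Pcdh8, Bdnf, Arl5b and Nr4a2, it lay at or under the top of the lowest set, against 0 for PTZ 4, 0 for PTZ+Q808 5, 1 for PTZ+Q808 1 and 1 for PTZ+Q808 3. For 11 of the 64 it was above at least 1 other library of the highest set, and these included Npas4, Nr4a1, Btg2, Dusp1, Ier2, Arc and Adrb1. Arl5b, a small GTPase, was 5.55 FPKM in PTZ 3, against 15.4 to 20.4 FPKM in the other 4 highest-Fos libraries and 4.99 to 6.93 FPKM in the lowest set. Ier2, an immediate-early nuclear protein, was 17.9 FPKM in PTZ 3, against 14.4 to 18 FPKM in the other 4 and 8.52 to 16.8 FPKM in the lowest set.

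Some genes separated the sets without passing the test on the slope. Mt1, a metallothionein, was 46.2, 113, 76.5, 66.6 and 45.7 FPKM in the highest-Fos libraries and 29.9, 33.5, 40.8, 43.1 and 28.6 FPKM in the lowest, with no overlap and an adjusted p of 0.106 (limma). Ccl2, a chemokine that attracts monocytes, was 1.46, 1.07, 2.33, 1.22 and 0.989 FPKM in the highest set, 0.504, 0.484, 0.463, 0.753 and 0.146 FPKM in the lowest and 0 to 0.150 FPKM in control, with an adjusted p of 0.0733 (limma).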
